A study of Mus musculus with 27 samples.

Results

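Carbonic anhydrases, aquaporins and ion transporters that set the pH, water and salt content of nasal mucus were examined in the olfactory mucosa, the tissue at the back of the nasal cavity that holds the odor-sensing neurons. The set holds 8 genes, Car2, Car4, Car12, Aqp3, Aqp4, Aqp5, Slc4a4 and Slc12a2. It was taken as every probe that the array's annotation assigns to them. These were 8 of 16637 named genes and 9 of 29922 probes, 2 for Slc4a4 and 1 for each other gene. The mice were 25-day-old FVB females. Occluded mucosa came from the side of a nostril closed by cautery (unilateral naris occlusion), and open mucosa from the other side of the same mice. Normal mucosa came from other mice; the design text calls it untreated, while the treatment protocol speaks of a sham cautery. Each group had 3 biological replicates with 3 arrays each, 27 arrays in all. The labels state neither the time from cautery to tissue collection nor whether a replicate was 1 mouse or a pool.

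Carbonic anhydrases interconvert carbon dioxide with bicarbonate and a proton, and so link respiration and metabolism to the pH of a cell and of the fluid on its surface. Aquaporins are membrane channels through which water follows salt, and bicarbonate and chloride cotransporters move the salt. In the olfactory mucosa these proteins serve the glands and supporting cells that make and condition the mucus over the odor-sensing cilia. Slc12a2 has a further role in the neurons themselves, since it loads them with the chloride that leaves during the odor response.

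No difference of the 9 probes between groups passed the test in any comparison. In limma with Benjamini-Hochberg adjustment over all probes, 0 of 9 passed an adjusted p of 0.05 in occluded against open mucosa, where 0.221% of all probes passed. The count was 0 of 9 in occluded against normal mucosa (0.00668% of all probes) and 0 of 9 in open against normal mucosa (0% of all probes). An unadjusted p under 0.05 was reached by 0 of the 9 in each comparison, against 6.19%, 2.88% and 1.59% of all probes. For no probe were the replicates of a pair of groups free of overlap, which held for 6.7% of all probes in occluded against open, 6.67% in occluded against normal and 4.27% in open against normal mucosa. Over the 8 probes above the noise limit on all arrays, which leaves out Slc4a4 probe 2, the median log2 difference was -0.14 in occluded against open mucosa, 0.18 in occluded against normal and 0.30 in open against normal, beside 0.0042, 0.0063 and -0.0038 over all probes. Over all 9 probes, Slc4a4 probe 2 included, the medians were -0.21, 0.05 and 0.22 in the same order. None of these medians was tested. The comparisons share groups and are not independent of each other.

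Values are log2 normalized intensities, the mean of 3 arrays for each replicate, listed in the order of replicates 1, 2 and 3. Differences are given with their standard error (SE) and their 95% interval from the limma fit. A probe's noise limit on an array, 3 times the root mean square of that array's values below 0, lay between 11.6 and 24.1 intensity units. Levels of different probes cannot be set against each other. In a tissue extract, fewer cells of a type and less RNA per cell cannot be told apart.

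Before the results, 2 features of the samples touch them. Normal replicate 2 stood apart in 3 cartilage genes. Col2a1 read 13.33 there against 8.03 to 9.41 in the other 8 replicates, Acan 10.67 against 7.17 to 8.10 and Col10a1 9.37 against 4.67 to 6.63. The bone genes of the same list did not stand apart in this way, with Ibsp at 13.82, below its value in occluded replicate 1, and Sp7 at 11.33 against 10.37 to 11.22. Replicate 1 of every group stood apart in the mean of 7 measured markers of sustentacular cells, the supporting cells of the epithelium. This mean was 12.24, 12.29 and 12.38 in replicate 1 of the occluded, open and normal groups and between 12.87 and 13.24 in the others. Not every marker followed, since Cyp1a2 was highest in replicate 1 of the open and normal groups. Muc2 and Krt18 were not lowest in replicate 1 of every group either. Of all probes, 14.1% were lowest in replicate 1 of all 3 groups, against 2.7% for replicate 2 and 2.76% for replicate 3. The labels do not say what a number shares between mice of different groups. All 7 measured markers of mature olfactory neurons were above the noise limit on at least 14 of 27 arrays. Omp was saturated on 26 of 27. The measured genes of every other marker list cleared this limit too, those of skeletal muscle among them, so clearing it does not identify the tissue. The mean of the neuron markers was 14.30 on the occluded side, 13.93 on the open side and 13.87 in normal mucosa. By this mean too, replicate 1 was the lowest of each group (14.15, 13.82 and 13.63 in the occluded, open and normal groups). None of the 7 passed in limma in any comparison. In occluded against open mucosa all 6 differences other than that of the saturated Omp lay above 0, beside 50.7% of all probes. Of these 6, 4 had an unadjusted p under 0.05 (6.19% of all probes), among them Cnga2, which was saturated on 3 of 27 arrays. In occluded against normal mucosa all 6 lay above 0 (51% of all probes), and 1 had such a p (2.88%). In open against normal mucosa 3 of the 6 lay above 0 (49.1%), and 0 had such a p (1.59%).

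Car2 encodes a fast cytosolic carbonic anhydrase, known in this tissue from a small class of neurons that sense carbon dioxide and also from bone-resorbing osteoclasts. It read 11.38, 11.71 and 12.06 on the occluded side, 11.55, 12.02 and 12.25 on the open side and 11.39, 11.89 and 12.00 in normal mucosa. The groups overlap throughout, and replicate 1 was the lowest of each group. The mean on the occluded side was 11.72 ± 0.34 (SD, n = 3), that on the open side 11.94 ± 0.36 and that in normal mucosa 11.76 ± 0.33. Occluded mucosa differed from open mucosa by -0.23 ± 0.20 (SE), with an interval from -0.68 to 0.23 (limma adjusted p = 0.99). All 3 pairs by number lay below 0, at -0.17, -0.31 and -0.19. This held for 12.6% of all probes, and for 2 of the 9 here, Car2 and Aqp5. Pairs of 1 sign in either direction were found for 26.4% of all probes and 22.2% of the 9. Without occluded replicate 1 the difference was -0.0053, and without open replicate 1 it was -0.46. The differences from normal mucosa were -0.04 ± 0.26 for the occluded and 0.18 ± 0.26 for the open side.

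The spread of Car2 within groups followed the replicate number. Its SD within groups was 0.34, and 0.06 once each number was given a level of its own. With the number as a fixed replicate block over the 9 values, a fit chosen after the data were seen, occluded mucosa still differed from open mucosa by -0.23, now with an SE of 0.15, and limma made no call (adjusted p = 1). The mean of the sustentacular markers was low in the same 3 replicates, and the part of these cells in the Car2 values was not tested. The 5 measured osteoclast markers had a mean between 8.79 and 9.27 over the 9 replicates. It was highest in normal replicate 2, where Car2 was between its other normal replicates. Open replicate 3 followed at 9.26, and Car2 was the highest of the 9 there. The part of osteoclast RNA in the Car2 values was not tested.

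**Figure D1:**
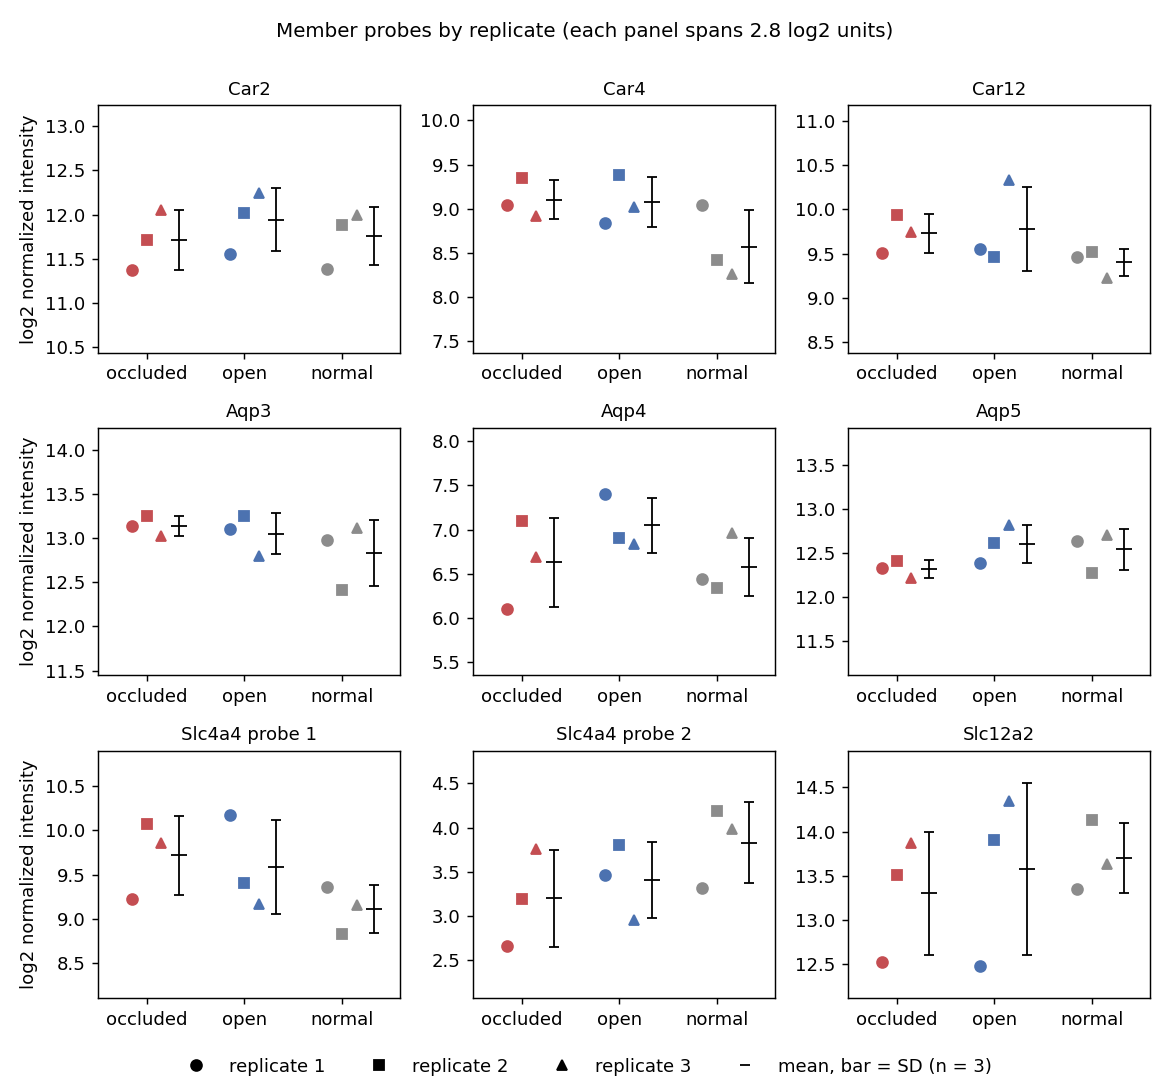
Log2 normalized intensity of the 9 probes (vertical axis) in occluded, open and normal mucosa. Each symbol is 1 biological replicate (mean of 3 arrays), with circles for replicate 1, squares for 2 and triangles for 3, and the bar gives the mean ± SD of 3. The groups overlap in every panel, and Slc4a4 probe 2 lay below the noise limit on 13 of 27 arrays.

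Car4 encodes a carbonic anhydrase anchored to the outer face of the membrane, where it acts on the fluid outside the cell. It read 9.05, 9.35 and 8.91 on the occluded side, 8.83, 9.38 and 9.02 on the open side and 9.04, 8.41 and 8.26 in normal mucosa. Both sides of the cauterized mice thus lay close together, and 2 of 3 normal replicates lay below all 6 of them, with normal replicate 1 among them. The group means were 9.10 ± 0.22 (SD, n = 3), 9.08 ± 0.28 and 8.57 ± 0.41. The difference between the sides was 0.03 ± 0.20 (SE), and its interval from -0.43 to 0.48 covers ratios of 0.744 to 1.39. Occluded mucosa differed from normal mucosa by 0.53 ± 0.25 (interval -0.04 to 1.11, limma adjusted p = 1). Open mucosa differed from the same 3 normal replicates by 0.51 ± 0.25 (interval -0.07 to 1.09, adjusted p = 1). Of the 8 probes above the noise limit, Car4 had the smallest unadjusted p in both comparisons with normal mucosa, and neither passed. Without normal replicate 2 the differences were 0.46 and 0.43, and without normal replicate 1 they were 0.77 and 0.74. No fit that left out a replicate gave a call.

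Car12 encodes a transmembrane carbonic anhydrase whose active site also faces outward, common in secreting epithelia. It read 9.50, 9.93 and 9.75 on the occluded side, 9.55, 9.46 and 10.33 on the open side and 9.46, 9.51 and 9.23 in normal mucosa. Open replicate 3 was the highest of the 9 and normal replicate 3 the lowest. The means were 9.73 ± 0.22 (SD, n = 3), 9.78 ± 0.48 and 9.40 ± 0.15. The sides differed by -0.05 ± 0.22 (SE), with pairs of 1 sign in neither direction (-0.05, 0.47 and -0.58). Without open replicate 3 that difference was 0.21. The differences from normal mucosa were 0.33 ± 0.28 for the occluded side (interval -0.30 to 0.95) and 0.38 ± 0.28 for the open side (interval -0.25 to 1.01), both with a limma adjusted p = 1. Without open replicate 3 the difference of open from normal mucosa was 0.11, and without occluded replicate 2 that of occluded from normal mucosa was 0.12.

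Aqp3 encodes a channel for water and glycerol, known from basolateral membranes and basal cells of many epithelia. It read 13.14, 13.25 and 13.03 on the occluded side, 13.10, 13.26 and 12.80 on the open side and 12.97, 12.41 and 13.12 in normal mucosa. Of the 9 values, 8 lay between 12.80 and 13.26, and normal replicate 2 was the lowest. The sides differed by 0.09 ± 0.18 (SE), with an interval from -0.32 to 0.49, which covers ratios of 0.802 to 1.41 (limma adjusted p = 1). The differences from normal mucosa were 0.31 ± 0.23 for the occluded and 0.22 ± 0.23 for the open side, both with adjusted p = 1. Without normal replicate 2, the replicate high in cartilage genes, they were 0.09 and 0.0065. The part of cartilage RNA in these values was not tested.

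Aqp4 encodes the main water channel of glial end feet and of the basolateral membrane of airway and gland cells. Its probe was dim, with a median intensity of 111.7 and a range of 36.3 to 181.8 over the 27 arrays, all above the noise limit. It read 6.10, 7.10 and 6.68 on the occluded side, 7.40, 6.90 and 6.84 on the open side and 6.44, 6.33 and 6.96 in normal mucosa. Occluded replicate 1 was the lowest and open replicate 1 the highest of the 9, while the pairs of numbers 2 and 3 differed by 0.20 and -0.16. The difference between the sides was -0.42 ± 0.27 (SE), with an interval from -1.04 to 0.20 (limma adjusted p = 0.95). Without occluded and open replicate 1 it was 0.02. Occluded mucosa differed from normal mucosa by 0.05 ± 0.35 and open mucosa by 0.47 ± 0.35, both with adjusted p = 1. The SD between single arrays of 1 replicate was 0.34. The SD between replicates of a group was 0.39, but each replicate value is a mean of 3 arrays, so these SDs are not like measures.

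Aqp5 encodes the water channel of the apical membrane of secreting gland cells, where water leaves for the lumen. It read 12.34, 12.41 and 12.21 on the occluded side, 12.39, 12.61 and 12.81 on the open side and 12.64, 12.28 and 12.71 in normal mucosa. The occluded replicates lay closest together, and the highest of them was above the lowest of both other groups. The means were 12.32 ± 0.10 (SD, n = 3) on the occluded side, 12.60 ± 0.21 on the open side and 12.54 ± 0.23 in normal mucosa. Occluded mucosa differed from open mucosa by -0.28 ± 0.16 (SE), a ratio of 0.821 with an interval from 0.637 to 1.06 (limma adjusted p = 0.92). All 3 pairs lay below 0, at -0.05, -0.20 and -0.60. Without occluded and open replicate 3 the difference was -0.13, and without those of number 1 it was -0.40. Of the 9 probes, Aqp5 had the smallest p in this comparison, and it ranked 3633 by p among the 29922 probes of the array. The difference from normal mucosa was -0.22 ± 0.21 on the occluded and 0.06 ± 0.21 on the open side, both with limma adjusted p = 1. The first was -0.35 without normal replicate 2 and -0.11 without occluded replicate 3. Aqp5 had the smallest spread between replicates of the 9 probes, with an SD of 0.19 within groups.

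**Figure D2:**
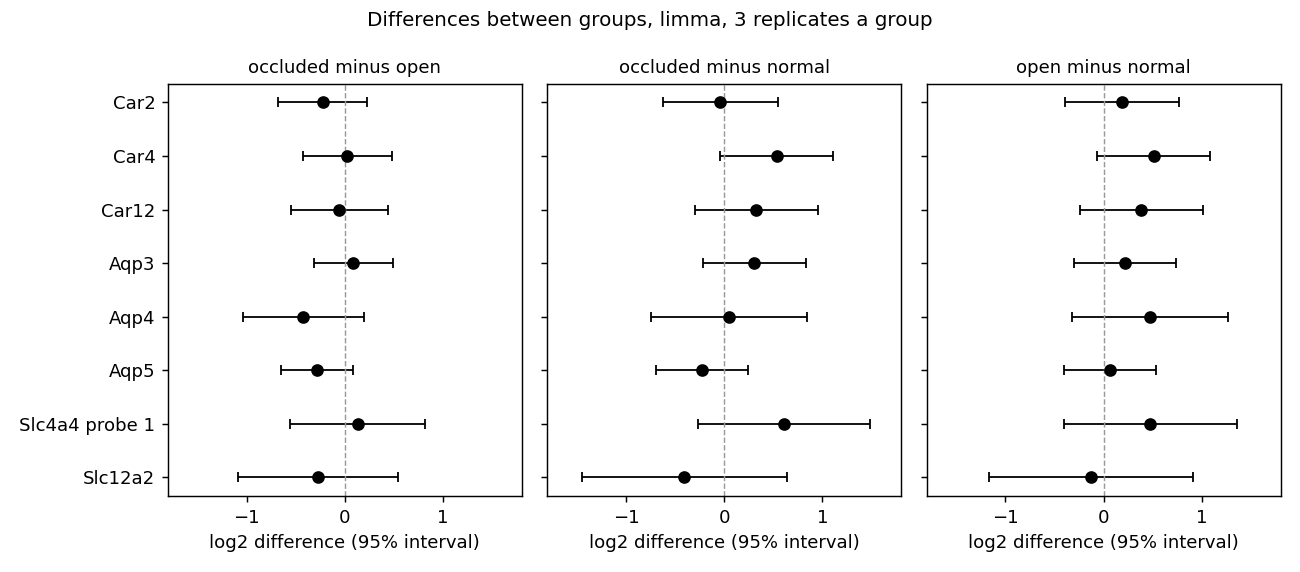
Log2 differences (horizontal axis) of the 8 probes above the noise limit on all arrays in occluded minus open, occluded minus normal and open minus normal mucosa, with points for the limma estimate and bars for the 95% interval, 3 replicates a group. Every interval includes 0, and the interval of Car4 against normal mucosa comes closest to leaving it out, from -0.04 to 1.11 on the occluded side.

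Slc4a4 encodes an electrogenic cotransporter that moves sodium and bicarbonate together across the membrane. Its brighter probe, probe 1, read 9.22, 10.07 and 9.86 on the occluded side, 10.18, 9.41 and 9.17 on the open side and 9.35, 8.82 and 9.15 in normal mucosa. The order of the sides turned with the number, since occluded mucosa was lower in pair 1 (-0.96) and higher in pairs 2 and 3 (0.67 and 0.69). The difference between the sides was 0.13 ± 0.30 (SE), with an interval from -0.55 to 0.82. It was 0.68 without occluded and open replicate 1, and -0.15 without those of number 3. Occluded mucosa differed from normal mucosa by 0.61 ± 0.39 (interval -0.27 to 1.49) and open mucosa by 0.47 ± 0.39 (interval -0.40 to 1.35), each with a limma adjusted p = 1. Without normal replicate 2, the lowest of the 9, these were 0.46 and 0.33, and without occluded and open replicate 1 they were 0.86 and 0.18, again with no call.

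The other Slc4a4 probe, probe 2, lay below the noise limit on 7 of 9 occluded, 3 of 9 open and 3 of 9 normal arrays. Its median intensity over the 27 arrays was 15.75, and the SD between arrays of 1 replicate was 1.45 on the log2 scale. Its differences and the order of its groups are therefore not read, and the probes of the gene cannot be set against each other here. None of its differences passed either, with limma adjusted p = 1 in all 3 comparisons.

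Slc12a2 encodes the sodium-potassium-chloride cotransporter that brings chloride into olfactory neurons and into secreting gland cells. It read 12.52, 13.50 and 13.87 on the occluded side, 12.48, 13.90 and 14.34 on the open side and 13.35, 14.13 and 13.64 in normal mucosa. Replicate 1 was again the lowest of each group, with 12.48 on the open side the lowest of the 9 and open replicate 3 the highest. The means were 13.30 ± 0.70 (SD, n = 3), 13.58 ± 0.97 and 13.71 ± 0.40, the widest spread of the 9 probes. The SD between arrays of 1 replicate was 0.24, so the replicates differed by more than their repeat arrays. Occluded mucosa differed from open mucosa by -0.28 ± 0.36 (SE), with an interval from -1.09 to 0.54 that covers ratios of 0.469 to 1.45 (limma adjusted p = 1). The pairs differed by 0.04, -0.40 and -0.47. The differences from normal mucosa were -0.41 ± 0.46 for the occluded and -0.13 ± 0.46 for the open side.

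The sign for this gene depended on single replicates. Without occluded replicate 1 the difference between the sides was 0.25, and without open replicate 1 it was -0.92. The difference of open from normal mucosa was 0.52 without open replicate 1 and 0.08 without normal replicate 2, and that of occluded from normal mucosa was 0.12 without occluded replicate 1. Giving each number a level of its own lowered the SD within groups from 0.73 to 0.41. Slc12a2 and Car2 were the 2 of 9 probes that were lowest in replicate 1 of all 3 groups, beside 14.1% of all probes.

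**Figure D3:**
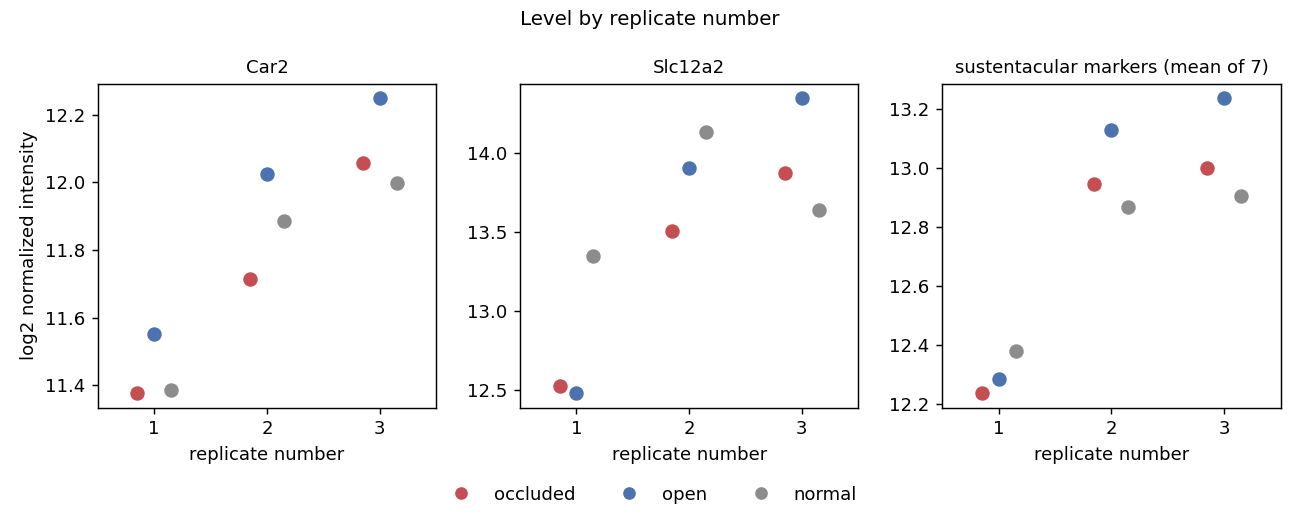
Log2 normalized intensity (vertical axis) of Car2, of Slc12a2 and the mean of 7 sustentacular cell markers, by replicate number (horizontal axis, which carries no order), with 1 point for each replicate of the occluded, open and normal groups. In each panel replicate 1 is the lowest of every group, with the markers at 12.24 to 12.38 in replicate 1 and at 12.87 to 13.24 in the others; each panel has its own vertical scale.

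The order of the groups differed between genes, and none of the neighbours in an order passed the test. Of 16 gaps between neighbouring group means of the 8 readable probes, 5 were wider than the SD between replicates of a group and the others lay within it. The 5 were those of Car4 (open above normal, 0.51 with an SD of 0.32), Car12 (occluded above normal, 0.33 with 0.32), Aqp4 (open above occluded, 0.42 with 0.39), Aqp5 (normal above occluded, 0.22 with 0.19) and Slc4a4 probe 1 (open above normal, 0.47 with 0.43). Normal mucosa had the lowest mean for Car4, Car12, Aqp3, Aqp4 and Slc4a4 probe 1. The occluded side had the lowest mean for Car2, Aqp5 and Slc12a2. The open side had the highest mean for Car2, Car12, Aqp4 and Aqp5, the occluded side for Car4, Aqp3 and Slc4a4 probe 1, and normal mucosa for Slc12a2. Of these 8 probes, 3 lay above 0 in occluded against open mucosa, 5 in occluded against normal and 7 in open against normal, beside 50.7%, 51% and 49.1% of all probes.

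The wider families of these genes gave no call either. Of 98 genes in 7 lists, 89 were measured, each by its brightest probe, and the 8 genes described above are among them. In limma 0 of 89 passed in each comparison. An unadjusted p under 0.05 was reached by 6 of 89 in occluded against open mucosa (6.74%, beside 6.19% of all probes), by 3 in occluded against normal (3.37%, beside 2.88%) and by 2 in open against normal (2.25%, beside 1.59%). Of the 6, 4 were probes below the noise limit on over 13 of 27 arrays, namely those of Car8, Slc26a10, Slc26a11 and Clca2, for which no fold is given. The genes above the noise limit on at least 14 of 27 arrays numbered 83. This rule is looser than that of all arrays used for the 8 member probes. Of the 83, an unadjusted p under 0.05 was reached by 2 in occluded against open mucosa (2.41%). It was reached by 1 in occluded against normal (1.2%) and by 0 in open against normal mucosa (0%). The median log2 difference of the 83 was 0.03 in occluded against open mucosa, 0.04 in occluded against normal and 0.04 in open against normal.

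All 16 carbonic anhydrase genes were on the array, with a median difference of 0.02 between the sides, 9 above 0 and 7 below. The smallest p belonged to Car14, which encodes a membrane-bound form. Its mean was 8.95 on the occluded side, 8.08 on the open side and 8.28 in normal mucosa. The difference between the sides was 0.87 ± 0.27 (limma adjusted p = 0.52) and that of occluded from normal mucosa 0.67 ± 0.35 (adjusted p = 1). Against normal mucosa the family's median was 0.11 for the occluded and 0.11 for the open side. All 12 aquaporin genes were measured as well, with 6 above and 6 below 0 between the sides and a median of 0.01. The smallest p there was that of Aqp7, an aquaglyceroporin, at 0.32 ± 0.16 (adjusted p = 0.87), followed by that of Aqp5. Aqp6 had the next smallest p to Aqp3 in occluded against normal mucosa, at 0.19 ± 0.17. In open against normal mucosa Aqp7 had the next smallest p to Aqp4, at -0.20 ± 0.20. Neither passed in limma.

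Of the bicarbonate transporter families Slc4 and Slc26, 19 of 21 genes were measured, 4 of them below the noise limit on over 13 of 27 arrays. With these 4 included, 14 of 19 lay above 0 in occluded against open mucosa (50.7% of all probes), with a median of 0.13. In occluded against normal mucosa 13 lay above 0 (51% of all probes), and in open against normal mucosa 8 (49.1%). With the 4 left out, the anion transporter gene Slc26a7 had the smallest p in occluded against open mucosa (0.36 ± 0.12, limma adjusted p = 0.58). In open against normal mucosa the chloride and bicarbonate transporter gene Slc26a9 differed by 0.42 ± 0.24 (adjusted p = 1). The cation-chloride cotransporters, with 8 of 9 genes measured, had 4 above and 4 below 0 between the sides. Slc12a8 differed by 0.35 ± 0.23 (adjusted p = 0.95) and the kidney cotransporter gene Slc12a1 by -0.14 ± 0.14 (adjusted p = 0.99). Slc12a8 had the smallest p of this family in occluded against normal mucosa too (0.31 ± 0.29), followed there by the potassium-chloride cotransporter gene Slc12a4 (-0.24 ± 0.25). In open against normal mucosa Slc12a4 differed by -0.29 ± 0.25 and Slc12a1 by 0.16 ± 0.18, all with adjusted p = 1.

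Among the sodium-hydrogen exchangers and their regulators, 8 of 11 genes were measured. Slc9a4, an exchanger of gastric and other epithelia, had the smallest p in each comparison, at -0.41 ± 0.24 between the sides (limma adjusted p = 0.92), -0.74 ± 0.30 in occluded against normal mucosa (adjusted p = 1) and -0.33 ± 0.30 in open against normal mucosa (adjusted p = 1). It was below the noise limit on 6 of 27 arrays. The next were the exchanger regulator gene Slc9a3r2 between the sides (-0.29 ± 0.20) and in open against normal mucosa (0.25 ± 0.26), and Slc9a8 in occluded against normal mucosa (-0.23 ± 0.17). The 15 epithelial chloride and sodium channel genes, all measured, had a median of -0.0069 between the sides. Ano2, which encodes the calcium-activated chloride channel through which the chloride loaded by Slc12a2 leaves the neuron, had a mean of 11.58 on the occluded side, 11.06 on the open side and 10.67 in normal mucosa. Its difference was 0.52 ± 0.41 between the sides (adjusted p = 0.98) and 0.91 ± 0.52 in occluded against normal mucosa (adjusted p = 1). Normal replicate 1 read 9.29 and the other 8 replicates 10.81 to 11.79, and Ano2 is also 1 of the 7 mature neuron markers given above. In open against normal mucosa the smallest p-values of this list were those of the chloride channel gene Clcn3 (0.19 ± 0.17) and of Scnn1a, a subunit of the epithelial sodium channel (-0.30 ± 0.31).

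Of the sodium-potassium ATPase subunits, which maintain the sodium gradient that drives Slc4a4 and Slc12a2, 11 of 14 were measured. Atp1b3 differed by -0.42 ± 0.30 between the sides (limma adjusted p = 0.97) and by -0.34 ± 0.39 in occluded against normal mucosa, and Fxyd2, a small regulatory subunit, by 0.23 ± 0.21 between the sides (adjusted p = 0.99). The regulatory subunit gene Fxyd5 differed from normal mucosa by -0.15 ± 0.19 on the occluded and by -0.22 ± 0.19 on the open side, and Fxyd1 by -0.20 ± 0.16 on the open side, all with adjusted p = 1. The lists were chosen with earlier results of these data known, and their counts are descriptions.

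**Figure D4:**
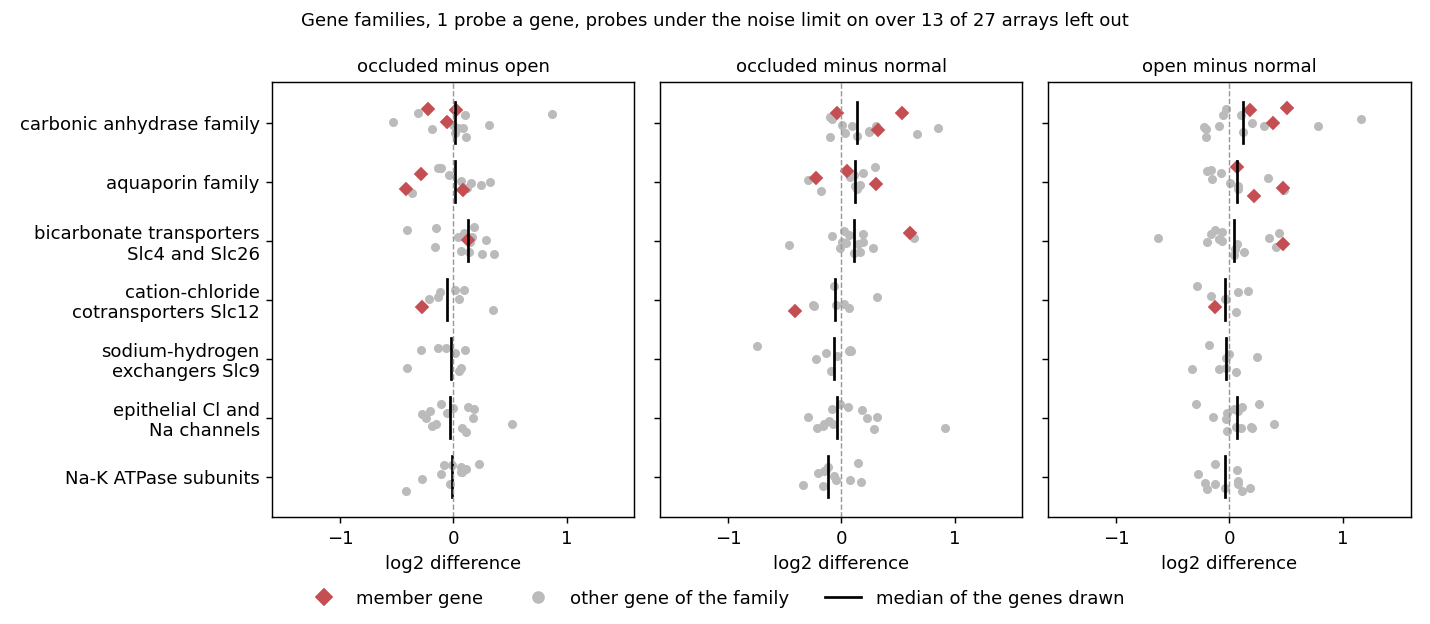
Log2 differences (horizontal axis) of 83 genes in 7 families (rows) for occluded minus open, occluded minus normal and open minus normal mucosa, with red diamonds for the 8 member genes, grey points for other genes of the family and black bars for the median of the genes drawn. In occluded against open mucosa Aqp4 and Slc12a2 are the lowest genes drawn of their families, with no call, and the median over all 83 genes is 0.03, 0.04 and 0.04 in the 3 comparisons; probes below the noise limit on over 13 of 27 arrays are left out.

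The genes with the most similar course over the 9 replicate values were found by Pearson's r among 14774 other named genes read on at least 14 of 27 arrays. The values share arrays and normalization, and occluded and open values share mice, so r is a description of these 9 values. Slc12a2 was followed most closely by Myo6 (r = 0.988), Slain2 (r = 0.988) and Cul9 (r = 0.982). Car2 was followed by Neurod1 (r = 0.974), Tstd3 (r = 0.973) and Ndc1 (r = 0.964), and Slc4a4 by Homer2 (r = 0.974), Cnnm4 (r = 0.94) and Gatad2b (r = 0.930). Aqp5 was followed by Chgb (r = 0.956), Cyp4f16 (r = 0.939) and Calr4 (r = 0.931), Aqp3 by Cox6a1 (r = 0.944), Olfr1370 (r = 0.944) and Prm2 (r = 0.937), and Car12 by Sema3f (r = 0.942), Aars (r = 0.938) and Med23 (r = 0.932). For the remaining members r was lower, with Olfr392 (0.920), Fut9 (0.912) and Htr1a (0.897) for Aqp4 and Insm1 (0.913), Entpd5 (0.895) and Aqp6 (0.880) for Car4.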

How the data were processed

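Per the labels' protocols, total RNA was amplified with amino-allyl UTP and coupled to Cy5, 1 sample per array. The authors deposited linear intensity values of 29922 probes on 27 arrays; the labels name no scanner, background method or normalization for them. Array medians ran from 123 to 274, and the share of probes under the noise limit from 8.57% to 19.8%. Precision is limited by the 3 biological replicates of each group. Values at or below 0 were set to 0.912, log2 was taken, arrays were quantile normalized (their medians spanned 1.15 on the log2 scale) and the 3 arrays of a replicate averaged. limma 3.58.1 (R 4.3.3, statmod 1.5.0) fitted the 9 values with the individual as a random block (correlation 0.389), two-sided, with a threshold of 0.05 after Benjamini-Hochberg adjustment over all probes; it was tested on simulated data. Equal numbers of occluded and open samples were read as 1 individual. The design text states that both sides come from the same individuals. The deviations of the 3 pairs from their group means correlated at 0.516, -0.0044 and 0.142. Those of occluded and normal replicates of equal number, which are different mice, correlated at 0.353, 0.0672 and 0.0015. Number 1 thus shared deviations between different mice too, and these correlations do not show that equal numbers are 1 individual. p-values measure the spread between these samples.

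Names came from the array's annotation (21020 probes with 1 symbol), updated through RefSeq genes of GRCm38.p6; the brightest probe stands for a gene in lists. Other genes were named by rule: in each list and comparison the 2 with the smallest p (those below the noise limit without values), and for each member the 3 genes of highest r. Col2a1, Acan, Col10a1, Ibsp, Sp7, Cyp1a2, Muc2, Krt18, Cnga2 and Omp were named after their values were seen. The members, lists and tests were chosen with earlier results of these data known. Alternatives covered the block, groups in the fit, normalization, averaging, dim probes, an offset of 50, the prior and each replicate left out.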

Additional observations from a re-analysis of the deposited data

How the results depend on the processing

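In 513 refits of the 27 member differences under 25 alternative fits, 0 passed an adjusted p of 0.05 in limma, and 476 kept the sign of the main value. The members' count of calls was 0 under each alternative, with at most 1 of 9 at an unadjusted p under 0.05. The count over all probes was less stable. In occluded against open mucosa it was 66, and 3 with no replicate block, 0 with the individual as a fixed replicate block, 2 with the number as a fixed replicate block (chosen after seeing the data), 14 with only these groups in the fit, 0 without normalization, 37 with median centring, and 0 to 123 with replicates left out. In occluded against normal mucosa it was 2, and 0 with only these groups, without normalization or with the number as a block, 13 and 16 when the dimmest 30% and 50% of probes were left out, 5 when arrays were combined by their median, 18 with an offset of 50, 19 with a trended prior, and 0 to 1 with replicates left out. In open against normal mucosa it was 0 throughout. Signs of member differences turned 37 times, in 13 of 27 differences. Car2 in occluded against normal mucosa was 0.0745 without normalization and 0.0198 with median centring. The other turns came with replicates left out, and the ranges were, in occluded against open mucosa, -0.10 to 0.10 for Car4, -0.32 to 0.21 for Car12, -0.0079 to 0.16 for Aqp3, -0.73 to 0.022 for Aqp4, -0.15 to 0.68 for Slc4a4 probe 1, -0.71 to 0.0917 for its probe 2, which is not read because 13 of its 27 arrays lay below the noise limit, and -0.92 to 0.25 for Slc12a2. In occluded against normal mucosa they were -0.23 to 0.18 for Car2, -0.23 to 0.32 for Aqp4 and -0.69 to 0.12 for Slc12a2, and in open against normal mucosa -0.0003 to 0.42 for Car2, -0.0711 to 0.17 for Aqp5 and -0.51 to 0.52 for Slc12a2. Of 24 differences of the 8 other probes, 22 moved by over 1.5 times or turned in some fit with replicates left out, all but those of Car4 from normal mucosa. Beyond the replicates left out, the cause was not tested. With 3 replicates a group, the intervals between the sides reach down to a ratio of 0.469 (Slc12a2) and up to 1.76 (Slc4a4 probe 1), and a p that misses the threshold does not show that values did not differ.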
